A study of Mus musculus with 10 samples.

Results

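The genes described here are the collagen genes of the mouse, those whose symbol reads Col, a number, the letter a and a number. They were found among probes that carry exactly 1 gene symbol. This gave 46 probes for 44 genes of the 19938 genes measured, and where a gene had several probes the brightest one, by its mean over the 10 arrays, was used. The 44 genes fall into 11 fibrillar collagens, 8 basement membrane collagens (6 type IV chains, Col15a1 and Col18a1) and 25 other collagens. Whole-transcript arrays were hybridised with total RNA of subcutaneous tumors that C57BL/6 mice carried after inoculation with MC38 cells, a murine colon carcinoma line. In 5 mice (50, 58, 183, 189 and 595) the tumor, at a size of about 40 mm2, received 50 µg of CpG1826 in a volume of 50 µL of PBS and was taken 6 h later. CpG1826 is a short synthetic DNA whose unmethylated CpG motifs are sensed by TLR9 in endosomes. In the other 5 mice (26, 29, 482, 592 and 661) the tumor received PBS, and the labels state no separate schedule for them. All 10 tumors come from 1 tumor line and 1 mouse strain, and each array was read as 1 mouse from the number in its title.

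Collagens are trimeric proteins whose chains wind into a triple helix built on repeats of glycine and 2 further residues. Fibrillar collagens form the tensile fibres of connective tissue, type IV collagen forms the sheet-like network of basement membranes, and the other collagens decorate fibrils, anchor epithelia or sit in cell membranes. In tumors, fibroblasts are the best-known source of fibrillar collagens, and endothelial cells, pericytes and epithelial cells contribute to basement membranes. The comparison asked which of these transcripts were higher or lower soon after the injection.

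Values are log2 normalized signals as deposited, and the median over genes of each array lay between 6.84 and 6.92. Precision is limited by the number of arrays, 5 a group. The tumors contained signal from several cell types. The mean of 10 fibroblast markers lay between 9.19 and 9.31 in PBS tumors and between 8.93 and 9.42 in CpG1826 tumors, with the lowest value in CpG1826 mouse 50. Of these markers, Pdpn rose and 0 fell, where 3.56% of all genes rose and 1.10% fell. Pdgfrb was lower without passing (-0.43, limma adjusted p = 0.0578, groups overlapping), and it passed in 8 of 20 alternative fits. Of 9 endothelial markers 0 rose and 1 fell, Tek, a call with adjusted p = 0.0488 by limma. The Tek call was lost in 13 of 19 alternative fits that tested it. At an unadjusted limma p under 0.05, Tek was lower and 2 markers were higher, both with overlapping groups. They were Pecam1 (0.37, limma adjusted p = 0.122) and Eng (0.29, limma adjusted p = 0.253), and Pecam1 passed in 1 of 20 alternative fits. Over all genes 8.13% were higher and 7.43% lower at that threshold. Of 5 pericyte markers 0 passed, also at an unadjusted p under 0.05. Among 6 carcinoma epithelial markers, the means over all tumors of Epcam (5.36), Krt18 (5.37), Krt19 (5.07) and Cdx2 (5.59) lay below the median gene value of 6.87, and Epcam and Cdh1 rose. The Epcam call (limma adjusted p = 0.0485, groups overlapping) was lost in 11 of 19 alternative fits that tested it. Of all tumors, CpG1826 mouse 189 had the highest mean of these 6 markers (6.21) and of the keratinocyte markers described below (7.45). The part of keratinocyte signal in the rises of Epcam and Cdh1 was not tested. In bulk tissue, fewer cells of a type and less RNA per cell cannot be told apart.

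Collagen transcripts differed little between the groups, and 1 of the 44 passed the test. Col17a1, a transmembrane collagen of the hemidesmosomes that attach basal keratinocytes to their basement membrane, rose by 0.56 on the log2 scale, and 0 collagen genes fell (limma with Benjamini-Hochberg adjustment over all genes, threshold 0.05). This is 2.27% of the members, beside 4.66% of all genes tested (3.56% higher and 1.10% lower). At an unadjusted limma p under 0.05, 2 collagens were higher (Col17a1 and Col5a3) and 4 lower (Col1a1, Col5a1, Col6a2 and Col6a3), where 8.13% and 7.43% of all genes were. At an adjusted limma p under 0.1, 1 collagen was higher and 0 were lower, beside 4.38% and 1.93% of all genes. The 2 groups did not overlap for Col17a1 (higher) and Col5a1 (lower), beside 4.35% and 2.42% of all genes.

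The intervals of the fold changes were narrow. For all 44 genes the 95% confidence interval of the limma test excluded a 2-fold change in either direction, and for 43 it excluded a 1.5-fold change. Over all 19938 genes the same held for 19636 and 18864 genes, so such intervals were common on these arrays. The exception among collagens was Col17a1. The lowest bound of any member was -0.53 (Col1a1). Most estimates lay slightly below 0: 35 of 44 collagens (79.5%) had a negative log2 fold change, as had 58% of all genes, and the median was -0.10 against -0.02 over all genes. The median was -0.13 for fibrillar, -0.04 for basement membrane and -0.10 for other collagens. These medians moved with single mice. Over all collagens the median was -0.06 with PBS mouse 26 left out, -0.05 with CpG1826 mouse 58 left out and -0.14 with CpG1826 mouse 189 left out.

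**Figure D1:**
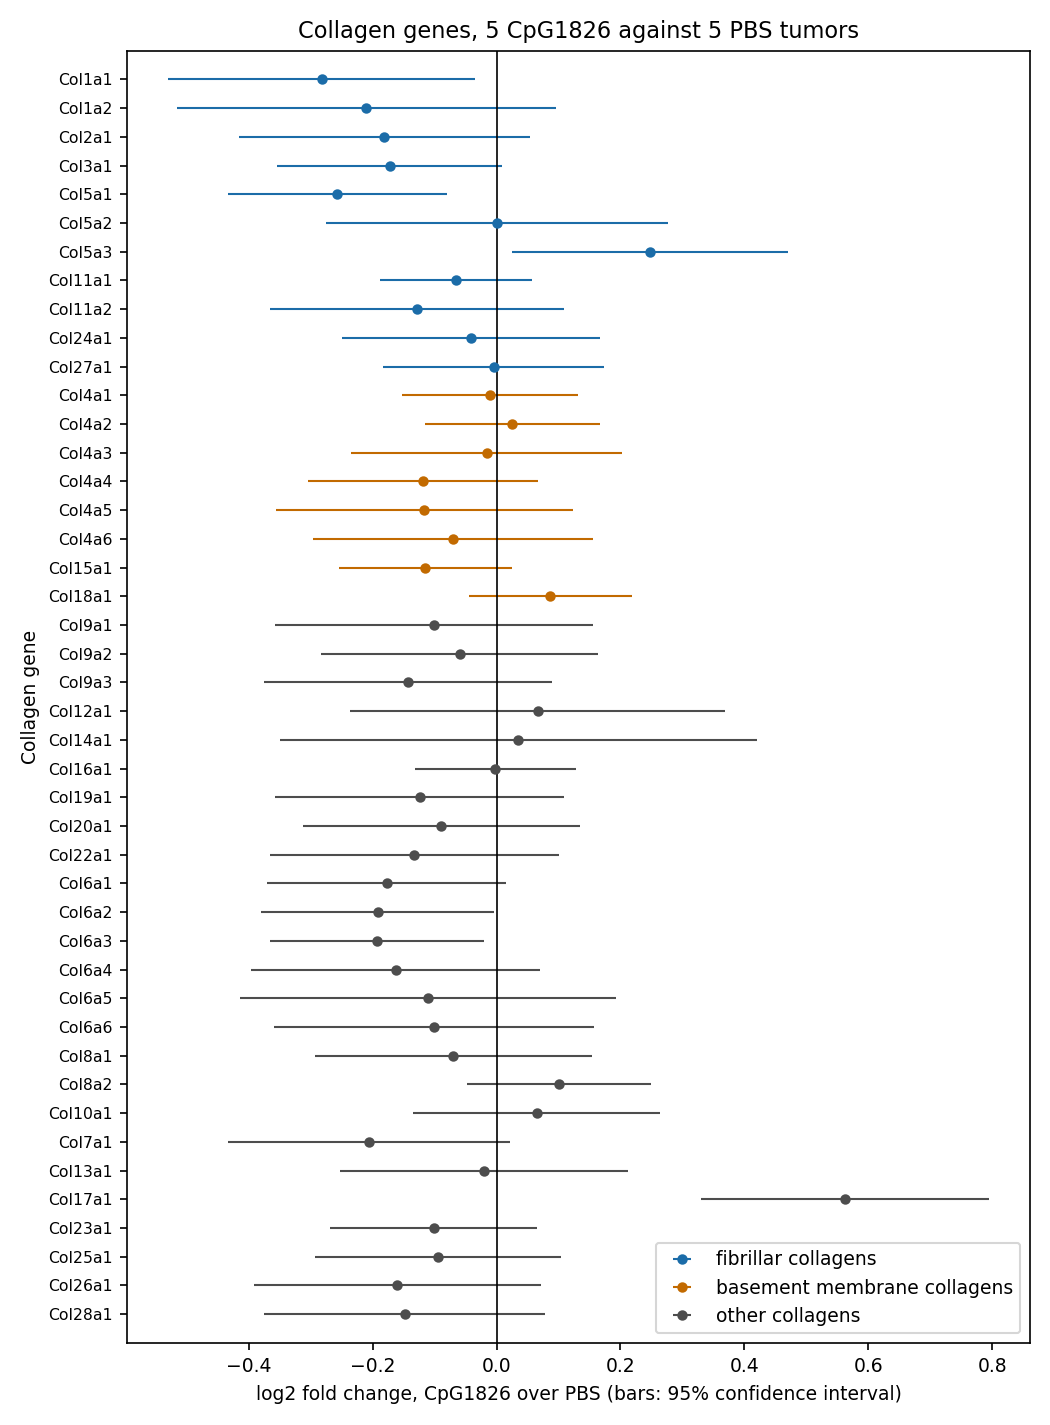
Log2 fold change of CpG1826 over PBS tumors for the 44 collagen genes (n = 5 per group), with bars for the 95% confidence interval of the limma test and colors for the 3 classes. Col17a1, at 0.56, stands to the right of the others, which lie between -0.28 (Col1a1) and 0.25 (Col5a3).

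Col17a1 was separated between the groups in every tumor. Its values in PBS tumors were 6.53 in mouse 26, 6.55 in mouse 29, 6.63 in mouse 482, 6.32 in mouse 592 and 6.70 in mouse 661. In CpG1826 tumors they were 7.14 in mouse 50, 6.78 in mouse 58, 7.08 in mouse 183, 7.42 in mouse 189 and 7.12 in mouse 595. Each CpG1826 tumor lay above each PBS tumor, with mouse 58 closest to the PBS range. The means were 6.55 ± 0.15 and 7.11 ± 0.23 (SD, n = 5 per group), a 1.48-fold difference (95% confidence interval 1.26 to 1.73, limma adjusted p = 0.00752). The call held in every fit that left out 1 mouse (log2 fold changes of 0.48 to 0.64, limma adjusted p = 0.00176 to 0.0241).

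Keratinocyte markers moved with Col17a1. Of 12 measured markers 9 rose and 0 fell, with a median log2 fold change of 1.75. Their mean level lay between 5.16 and 5.77 in PBS tumors and between 6.73 and 7.45 in CpG1826 tumors. Krt5 and Krt14, the paired keratins of basal keratinocytes, rose by 2.95 and 2.60 on the log2 scale. Krt1 and Krt10, on the same list, rose by 3.06 and 2.05, while Krt15 (0.26), Trp63 (0.25) and Ivl (0.17) did not pass. Within the PBS group, mouse 592 had both the lowest marker mean and the lowest Col17a1, and mouse 661 the highest of both. Within the CpG1826 group, mouse 189 had the highest of both, but the lowest marker mean was that of mouse 183 and the lowest Col17a1 that of mouse 58. Mice 592, 661 and 189 were also the lowest and highest of the PBS group and the highest of the CpG1826 group in the lower quartile of all gene values of their arrays (5.15, 5.31 and 5.39). With the marker mean of each array as a covariate, the log2 fold change of Col17a1 was -0.38 and did not pass (limma adjusted p = 0.516). The marker ranges of the groups do not overlap, so that value is an extrapolation, and treatment and keratinocyte signal cannot be told apart by it.

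Col7a1, the collagen of the anchoring fibrils that tie the epidermal basement membrane to the dermis, did not share this pattern. It was 9.59, 9.49, 9.68, 9.55 and 9.96 in PBS mice 26, 29, 482, 592 and 661. The CpG1826 values were 9.71 in mouse 50, 9.47 in mouse 58, 9.21 in mouse 183, 9.51 in mouse 189 and 9.35 in mouse 595. The groups overlapped, and the log2 fold change was -0.21 (95% confidence interval -0.43 to 0.02, limma adjusted p = 0.384). The difference between the 2 genes' changes was not tested, but their intervals (0.33 to 0.79 for Col17a1) do not overlap.

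**Figure D2:**
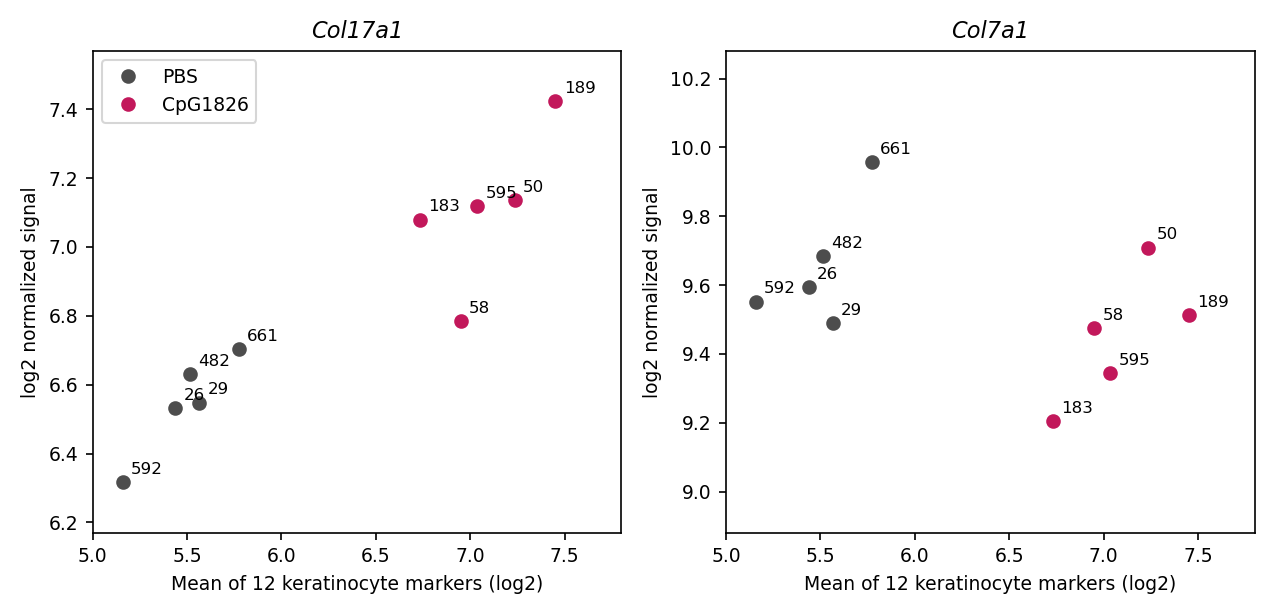
Log2 signal of Col17a1 (left) and Col7a1 (right) against the mean log2 level of 12 keratinocyte markers in the same tumor, with a point for each mouse. The CpG1826 tumors lie at marker means of 6.73 to 7.45 and the PBS tumors at 5.16 to 5.77. Col17a1 is higher in all CpG1826 tumors, and Col7a1 overlaps between the groups.

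The stretches of 250 bases before the annotated start sites show the promoters of the only collagen that rose, of its partner at the epidermal basement membrane and of 2 fibril-forming chains. They are from RefSeq (GRCm38.p6), written 5′ to 3′ on the strand of the gene. Capitals mark matches, on either strand, to the TATA box letters TATAAA, to the CCAAT box letters CCAAT and to the GC box letters GGGCGG. An AP-1 pattern, TGANTCA, was searched as well, and none of these patterns contains another.
Col17a1 (chr19:47692043-47692292, minus strand): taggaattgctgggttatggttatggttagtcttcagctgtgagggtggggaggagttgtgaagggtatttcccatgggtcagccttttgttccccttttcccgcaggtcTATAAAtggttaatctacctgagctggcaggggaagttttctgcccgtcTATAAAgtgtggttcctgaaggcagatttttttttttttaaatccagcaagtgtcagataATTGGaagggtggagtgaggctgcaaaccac
Col7a1 (chr9:108953336-108953585, plus strand): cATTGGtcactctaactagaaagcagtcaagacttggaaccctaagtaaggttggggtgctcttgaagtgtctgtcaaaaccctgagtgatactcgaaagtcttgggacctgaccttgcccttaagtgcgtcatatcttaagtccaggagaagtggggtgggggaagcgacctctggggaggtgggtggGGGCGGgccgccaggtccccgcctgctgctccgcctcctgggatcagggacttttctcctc
Col1a2 (chr6:4505368-4505617, plus strand): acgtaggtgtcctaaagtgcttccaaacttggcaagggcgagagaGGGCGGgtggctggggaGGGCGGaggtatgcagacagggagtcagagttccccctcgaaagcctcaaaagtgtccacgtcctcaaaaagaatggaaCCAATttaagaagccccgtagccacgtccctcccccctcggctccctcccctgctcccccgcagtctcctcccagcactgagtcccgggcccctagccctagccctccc
Col3a1 (chr1:45311288-45311537, plus strand): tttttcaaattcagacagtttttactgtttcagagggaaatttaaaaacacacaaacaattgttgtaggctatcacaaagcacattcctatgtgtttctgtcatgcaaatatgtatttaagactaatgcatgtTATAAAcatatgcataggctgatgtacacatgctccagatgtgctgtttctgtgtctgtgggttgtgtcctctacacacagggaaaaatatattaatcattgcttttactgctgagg
The Col17a1 stretch holds 2 TATAAA matches, starting 140 and 91 bases before the start site, and 1 CCAAT match, on the opposite strand, 31 bases before it. Col7a1 holds 1 CCAAT match on the opposite strand and 1 GGGCGG match, Col1a2 1 CCAAT and 2 GGGCGG matches, and Col3a1 1 TATAAA match. RefSeq windows were found for 35 of the 44 collagen genes, 38 windows together. A collagen gene was counted when any of its windows matched, whereas the shares over all are counted per window. TATAAA was in the windows of 5 of these 35 genes (14.3%) and in 12.4% of all 32851 windows, CCAAT in 13 (37.1% against 33.8%) and GGGCGG in 21 (60% against 32.7%). TGANTCA was found for Col6a1 alone (2.86% against 6.75%). A match is a run of letters in these windows, not a site shown to be bound.

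Fibrillar collagens did not pass the test in either direction: of 11 measured, 0 rose and 0 fell by limma. At an unadjusted p under 0.05, Col5a3 was higher, and Col1a1 and Col5a1 were lower. Col1a1 and Col1a2 encode the chains of type I collagen, the main fibre of connective tissue. Col1a1 was 12.46, 12.13, 12.18, 12.17 and 12.39 in PBS mice 26, 29, 482, 592 and 661, and 11.71, 12.10, 12.36, 11.91 and 11.84 in CpG1826 mice 50, 58, 183, 189 and 595. The CpG1826 values of mice 50, 58, 189 and 595 lay below the lowest PBS value, and that of mouse 183 lay within the PBS range. The log2 fold change was -0.28 (95% confidence interval -0.53 to -0.03, limma adjusted p = 0.243).

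Col1a2 was 11.71, 11.29, 11.39, 11.35 and 11.20 in the PBS tumors and 10.82, 11.34, 11.64, 11.12 and 10.97 in the CpG1826 tumors, in the same order of mice. Mouse 183 again had the highest and mouse 50 the lowest CpG1826 value, and the groups overlapped (-0.21, -0.52 to 0.10, limma adjusted p = 0.540). Col3a1, the chain of type III collagen, which shares fibrils with type I, was 12.30, 12.11, 12.17, 12.14 and 12.27 in PBS tumors and 11.74, 12.14, 12.01, 12.10 and 12.13 in CpG1826 tumors. Its log2 fold change of -0.17 (limma adjusted p = 0.354) was -0.10 without CpG1826 mouse 50, the lowest of the 10 tumors.

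Type V collagen regulates the start and the width of type I fibrils, and 0 of its 3 chains passed. Col5a1 was 9.63, 9.63, 9.68, 9.60 and 9.97 in PBS tumors and 9.37, 9.59, 9.36, 9.47 and 9.44 in CpG1826 tumors. The groups did not overlap, though the lowest PBS tumor (mouse 592) and the highest CpG1826 tumor (mouse 58) were close, and the log2 fold change was -0.26 (-0.43 to -0.08, limma adjusted p = 0.113). It passed after a further quantile normalization of the arrays (-0.30, limma adjusted p = 0.0485; 0.0485 to 0.272 over the alternatives that kept all mice and 0.0852 to 0.236 over the fits that left out 1).

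Col5a2 was 10.21, 9.85, 9.87, 9.89 and 9.66 in PBS tumors and 9.44, 10.02, 9.93, 9.95 and 10.14 in CpG1826 tumors, with both group means at 9.90. Col5a3, the third chain, was 9.10, 9.08, 9.20, 9.12 and 9.54 in PBS tumors and 9.54, 9.72, 9.34, 9.30 and 9.38 in CpG1826 tumors. Each CpG1826 tumor lay above 4 of the 5 PBS tumors, and PBS mouse 661 lay within the CpG1826 range (0.25, 0.02 to 0.47, limma adjusted p = 0.258). The intervals of Col5a1 and Col5a3 lie on opposite sides of 0, but neither gene passed and the difference between them was not tested. The 5 further fibrillar genes (Col2a1 and Col11a1, Col11a2, Col24a1 and Col27a1) had log2 fold changes from -0.18 (Col2a1, a cartilage collagen) to -0.005 (Col27a1).

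**Figure D3:**
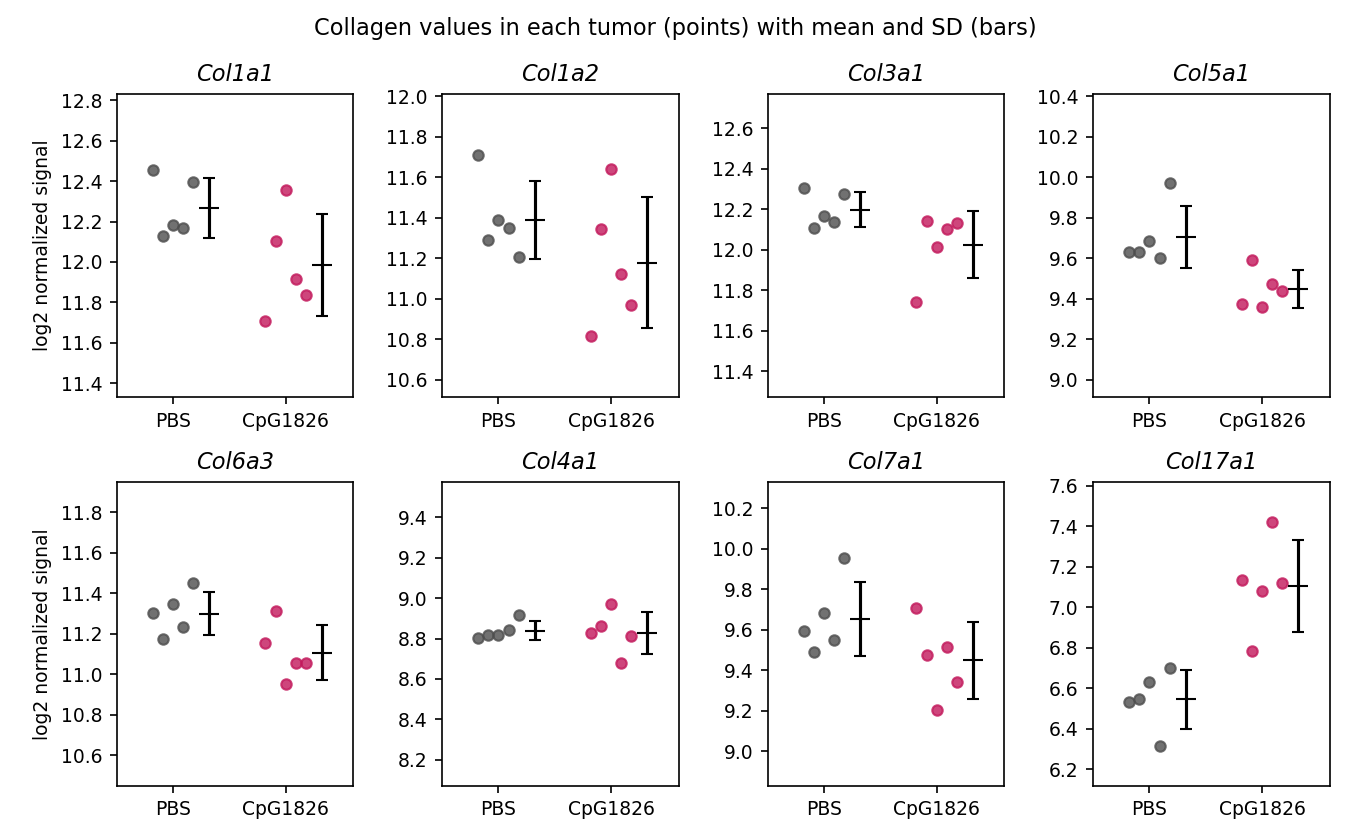
Log2 normalized signal of 8 collagen genes in each PBS and CpG1826 tumor (points, 1 per mouse), with the mean and SD of each group (n = 5). All panels span 1.5 log2 units. Col17a1 and Col5a1 do not overlap between the groups, Col4a1 lies between 8.68 and 8.97 in all tumors, and CpG1826 mouse 183 stands among the PBS values for Col1a1 and Col1a2.

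Basement membrane collagens were close between the groups. Of 8 measured, 0 rose and 0 fell by limma, and 0 passed at an unadjusted p under 0.05. Col4a1 and Col4a2 encode the 2 chains of the type IV trimer found in most basement membranes. Col4a1 was 8.80, 8.82, 8.82, 8.84 and 8.92 in PBS mice 26, 29, 482, 592 and 661, and 8.83, 8.86, 8.97, 8.68 and 8.81 in CpG1826 mice 50, 58, 183, 189 and 595. The CpG1826 values lay on both sides of the PBS values, and the log2 fold change was -0.01 with a 95% confidence interval of -0.15 to 0.13 (limma adjusted p = 0.966).

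Col4a2 was 8.55, 8.52, 8.61, 8.62 and 8.73 in PBS tumors and 8.62, 8.70, 8.71, 8.53 and 8.60 in CpG1826 tumors (0.03, -0.12 to 0.17, limma adjusted p = 0.902). As for Col4a1, mouse 183 had the highest and mouse 189 the lowest CpG1826 value. The type IV chains of restricted tissues, Col4a3, Col4a4, Col4a5 and Col4a6, had mean values between 5.78 and 6.47, below the median gene value, and log2 fold changes from -0.12 to -0.02. The lowest was that of Col4a4, which was 6.79, 6.39, 6.42, 6.32 and 6.51 in PBS tumors and 6.43, 6.29, 6.36, 6.45 and 6.31 in CpG1826 tumors, with PBS mouse 26 the highest and the groups overlapping (-0.30 to 0.07, limma adjusted p = 0.577). Col18a1, whose C-terminal part is endostatin, was 9.01, 9.02, 9.05, 8.94 and 9.07 in PBS tumors and 8.995, 9.17, 9.07, 9.16 and 9.12 in CpG1826 tumors (0.09, -0.04 to 0.22, limma adjusted p = 0.562). Col15a1, its close relative, was 7.30, 7.31, 7.42, 7.39 and 7.40 in PBS tumors and 7.12, 7.28, 7.35, 7.30 and 7.20 in CpG1826 tumors (-0.11, -0.25 to 0.03, limma adjusted p = 0.444). Both genes overlapped between the groups.

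Among the other collagens, Col17a1 was the 1 of 25 that passed. Type VI collagen forms beaded filaments around cells, and its 6 measured chains all had negative log2 fold changes, from -0.19 to -0.10. So had 79.5% of all collagens and 58% of all genes. Of the 6 chains 0 passed, and Col6a2 and Col6a3 had an unadjusted limma p under 0.05. Col6a1 was 11.38, 11.12, 11.35, 11.17 and 11.38 in PBS tumors and 10.89, 11.32, 11.10, 11.02 and 11.19 in CpG1826 tumors (-0.18, limma adjusted p = 0.372). Col6a2 was 10.49, 10.33, 10.53, 10.35 and 10.57 in PBS tumors and 10.04, 10.51, 10.26, 10.23 and 10.27 in CpG1826 tumors (-0.19, limma adjusted p = 0.310). For both chains CpG1826 mouse 58 lay within the PBS range and mouse 50 was the lowest of all tumors.

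Col6a3 was 11.30, 11.17, 11.34, 11.23 and 11.45 in PBS tumors and 11.15, 11.31, 10.95, 11.06 and 11.06 in CpG1826 tumors (-0.19, -0.37 to -0.02, limma adjusted p = 0.252). Here mouse 183 was the lowest and mouse 50 lay just below the PBS range. Col6a5 and Col6a6 had 2 probes each, and the second probes, at means of 4.99 and 4.71, were not used. The second probe of Col6a5 lay between 4.79 and 5.22 in PBS tumors and between 4.78 and 5.34 in CpG1826 tumors. That of Col6a6 lay between 4.62 and 4.77 in PBS tumors and between 4.62 and 4.82 in CpG1826 tumors. Col6a4 had a log2 fold change of -0.16.

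Fibril-associated collagens link fibrils to other matrix, and of 9 measured 0 passed, also at an unadjusted p under 0.05. Col12a1 was 9.31, 9.49, 9.61, 9.74 and 9.22 in PBS tumors and 9.06, 9.72, 9.83, 9.43 and 9.66 in CpG1826 tumors (0.07, -0.24 to 0.37, limma adjusted p = 0.877). Col14a1 varied widely within groups, from 7.63 in mouse 29 to 8.58 in mouse 26 within the PBS group and from 7.73 in mouse 50 to 8.54 in mouse 183 within the CpG1826 group. Its remaining PBS values were 8.37, 8.25 and 8.34 in mice 482, 592 and 661, and its remaining CpG1826 values 8.40, 8.49 and 8.18 in mice 58, 189 and 595 (0.04, -0.35 to 0.42, limma adjusted p = 0.956). The spread within each group was larger than the difference between them. Col16a1, at 8.94 in both group means, had one of the narrowest intervals (-0.13 to 0.13), and the 6 further genes (Col9a1, Col9a2, Col9a3, Col19a1, Col20a1 and Col22a1) lay between -0.14 and -0.06.

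Of the short-chain collagens, which form hexagonal networks, Col8a1 differed by -0.07, Col8a2 by 0.10 and Col10a1, a marker of hypertrophic cartilage, by 0.07, and 0 of the 3 passed. The transmembrane collagens besides Col17a1 were Col13a1 (-0.02), Col23a1 (-0.10) and Col25a1 (-0.09), so the rise was that of 1 among 4 transmembrane genes. Col26a1 and Col28a1 differed by -0.16 and -0.15. Each of these genes had a 95% confidence interval that included 0.

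CpG1826 mouse 50 had the lowest value of its group for 11 of the 44 collagens: Col1a1, Col1a2, Col3a1, Col5a2, Col15a1, Col18a1, Col12a1, Col14a1, Col6a1, Col6a2 and Col8a1. Mouse 58 was the lowest of that group for more collagens, among them Col17a1, Col4a3, Col6a4 and Col26a1. Most collagens lowest in mouse 58 had a mean below the median gene value, whereas all those lowest in mouse 50 lay above it. For other collagens above that value, among them Col3a1, Col6a1, Col6a2 and Col6a3, mouse 58 was the highest of the CpG1826 group. The fibroblast marker mean was the lowest of all tumors in mouse 50 (8.93) and the highest in mouse 58 (9.42). The part of this mean in the collagen values was not tested mouse by mouse. With the fibroblast marker mean as a covariate, 1 collagen rose (Col17a1) and 0 fell, as without it. For the 17 collagens whose mean value lay below the median gene value, the mean over the genes differed from array to array in both groups, though single genes such as Col8a2 and Col10a1 did not follow it in every tumor. The mean was 6.05 in PBS mouse 592, 6.06 in CpG1826 mouse 58 and 6.13 in CpG1826 mouse 595, and 6.43 in PBS mouse 26, 6.38 in PBS mouse 661 and 6.46 in CpG1826 mouse 189.

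The lower quartile of all gene values of an array followed nearly the same order. It was between 5.13 and 5.15 in the 3 tumors with the lowest values of these 17 genes and highest, at 5.39, in CpG1826 mouse 189. As a description, the Pearson correlation of the 2 quantities over the 10 arrays was 0.929 for the 17 dimmer collagens and 0.502 for the 27 brighter ones. All points share the arrays and their normalization, and no test was made. The group means of the dimmer collagens were 6.27 ± 0.15 for PBS and 6.24 ± 0.16 for CpG1826 (SD over 5 mice each). With the lower quartile of each array as a covariate, an alternative chosen after seeing the data, Col17a1 was again the only collagen called (0.61, limma adjusted p = 2.84e-04).

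**Figure D4:**
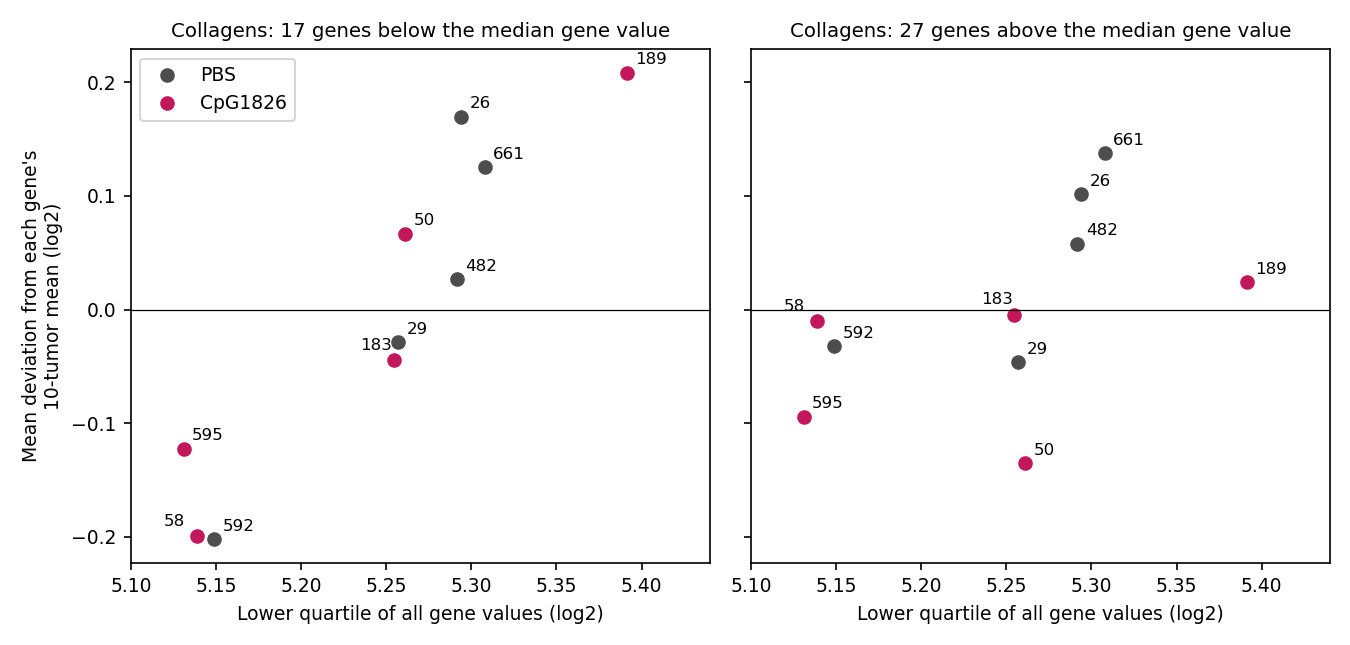
Mean deviation of collagen genes from their 10-tumor means (log2) against the lower quartile of all gene values on the same array (log2), for the 17 collagens below the median gene value (left) and the 27 above it (right), with a point for each mouse. On the left the points of both groups rise together from mouse 592 and mouse 58 to mouse 189, and on the right mouse 50 lies lowest.

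Col1a1 with Col1a2, Col4a1 with Col4a2 and Col6a1 with Col6a2, each a pair of chains that share a trimer, varied together across the tumors. Of 5 pairs set out for comparison, Col5a1 with Col5a2 was not tested because the groups of Col5a1 did not overlap. Col6a1 and Col6a2 had r = 0.966 (permutation p = 1.80e-04, adjusted p = 7.20e-04) and rho = 0.927 (permutation p = 2.20e-04, adjusted p = 8.80e-04) over 10 tumors, and r was 0.928 without the 2 tumors farthest from the median of Col6a1. Col4a1 and Col4a2 had r = 0.831 (permutation p = 7.20e-04, adjusted p = 0.00144) and rho = 0.915 (permutation p = 6.40e-04, adjusted p = 0.00128), with r = 0.873 without the 2 farthest tumors. Col1a1 and Col1a2 had r = 0.873 (permutation p = 0.00138, adjusted p = 0.00184) and rho = 0.806 (permutation p = 0.00786, adjusted p = 0.0105), with r = 0.696 without CpG1826 mice 50 and 595.

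Col1a1 and Col3a1, from different trimers, had r = 0.696 (permutation p = 0.0255, adjusted p = 0.0255) and rho = 0.661 (permutation p = 0.0454, adjusted p = 0.0454). Without CpG1826 mice 50 and 595 r was 0.495. Within the 5 PBS tumors alone, too few for a test, the order of the pairs differed, with r = 0.993 for Col1a1 with Col3a1 and r = 0.48 for Col1a1 with Col1a2. With each gene taken as its deviation from its group mean, r was 0.95 for the Col6a1 pair, 0.86 for the Col4a1 pair, 0.864 for the Col1a1 pair and 0.528 for Col1a1 with Col3a1. All values share the arrays and their normalization, whose part in these relations was not tested.

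Several of these genes lie side by side in the genome. In the RefSeq order of protein-coding genes (GRCm38.p6), 15 collagen genes form 8 neighbouring pairs, among them Col4a1 with Col4a2, Col4a3 with Col4a4, Col4a5 with Col4a6, Col6a1 with Col6a2, and Col3a1 with Col5a2. Col4a1 and Col4a2 are read in opposite directions, and their 300-base promoter windows share 78 bases. Both were close to 0 here (-0.01 and 0.03), and Col3a1 and Col5a2, which are also neighbours, were at -0.17 and 0.00. None of the 15 genes passed the test.

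Among 80 genes that make, modify, cut, bind or accompany collagen, 8 rose and 2 fell (12.5%). The 6 lists they come from were chosen with earlier results of the data known, and over all genes 4.66% passed. Of 12 collagen-degrading enzymes and their inhibitors, 4 rose and 0 fell, with a median log2 fold change of 0.19. Mmp13, a collagenase of fibrillar collagen, had a mean of 9.66 ± 0.22 in the PBS group and 10.997 ± 0.23 in the CpG1826 group (SD over 5 mice each; 2.53-fold higher, 2.11 to 3.04, limma adjusted p = 2.85e-05). Mmp8, the neutrophil collagenase, was 1.84-fold higher (1.49 to 2.28), from a low mean of 4.21 in the PBS group. Timp1 and Timp3, inhibitors of metalloproteinases, rose 1.70-fold (1.40 to 2.08) and 1.36-fold (1.16 to 1.59), and Timp3 no longer passed when mouse 29 or 661 (PBS) or 50, 183 or 189 (CpG1826) was left out (limma adjusted p up to 0.0790). Mmp2, which cleaves denatured and type IV collagen, and Mmp14 did not pass (-0.21 and 0.19).

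Of 10 measured collagen receptors, 1 rose and 1 fell (median -0.06). Itga2, which pairs with Itgb1 to bind fibrillar collagens, was 1.95-fold higher (1.69 to 2.26, limma adjusted p = 5.13e-05), and Lair1, an inhibitory collagen receptor of leukocytes, was 2.45-fold lower (1.92 to 3.12). Of 6 macrophage markers 1 fell, Csf1r (-0.46, limma adjusted p = 0.0119), and their mean level lay between 10.16 and 10.59 in PBS tumors and between 10.17 and 10.50 in CpG1826 tumors. Their part in the Lair1 value was not tested. Itgb1 (-0.01) and the discoidin receptors Ddr1 (-0.09) and Ddr2 (0.10) did not pass. With the keratinocyte marker mean as a covariate, 0 of the 80 genes passed, as 0.752% of all genes did. The log2 fold changes were then 1.27 for Itga2, 1.66 for Mmp13, 1.26 for Mmp8 and -1.32 for Lair1. Without the covariate they were 0.97, 1.34, 0.88 and -1.29. Among the other called genes, Agrn (0.23 against 0.27) and Fkbp14 (-0.30 against -0.31) were smaller in size with it, and the rest were larger. The marker ranges of the groups do not overlap, so these values are extrapolations. The part of keratinocyte signal in these genes was not tested.

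Genes of collagen synthesis were mostly close to 0. Of 18 measured modifying and folding enzymes, 1 rose and 1 fell (median 0.00). Plod1, a lysyl hydroxylase, rose by 0.33 on the log2 scale (limma adjusted p = 0.0203), but not with mouse 29 (PBS), 183 or 595 (both CpG1826) left out (limma adjusted p up to 0.0552). Fkbp14, a prolyl isomerase of the endoplasmic reticulum, fell by 0.31 (limma adjusted p = 0.0248), but not with mouse 26 or 661 (PBS), 50 or 183 (CpG1826) left out (limma adjusted p up to 0.0667). Serpinh1, the collagen chaperone HSP47, and P4hb, a subunit of prolyl hydroxylase, did not pass (0.06 and -0.04). Of 11 measured genes of procollagen processing and cross-linking, 0 passed by limma and 1, Loxl4, was higher at an unadjusted p under 0.05. Its log2 fold change was 0.35 (limma adjusted p = 0.0843, groups overlapping), and it passed in 3 of 19 alternative fits that tested it. Bmp1, which removes the C-terminal propeptide, and Pcolce, its enhancer, differed by -0.05 and -0.07.

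Few other matrix genes passed. Of 14 measured basement membrane genes besides collagens (laminins, nidogens, perlecan and agrin), Agrn alone passed (0.27, limma adjusted p = 0.0440), a call lost in 8 of the 10 fits that left out 1 mouse (limma adjusted p up to 0.125). Of 15 measured interstitial matrix genes, Thbs1, an adhesive glycoprotein and activator of TGF-β, rose 1.51-fold (1.27 to 1.80, limma adjusted p = 0.00866) and 0 fell. Dcn, Sparc and Fn1, abundant partners of collagen fibres, differed by 0.09, -0.12 and 0.01.

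**Figure D5:**
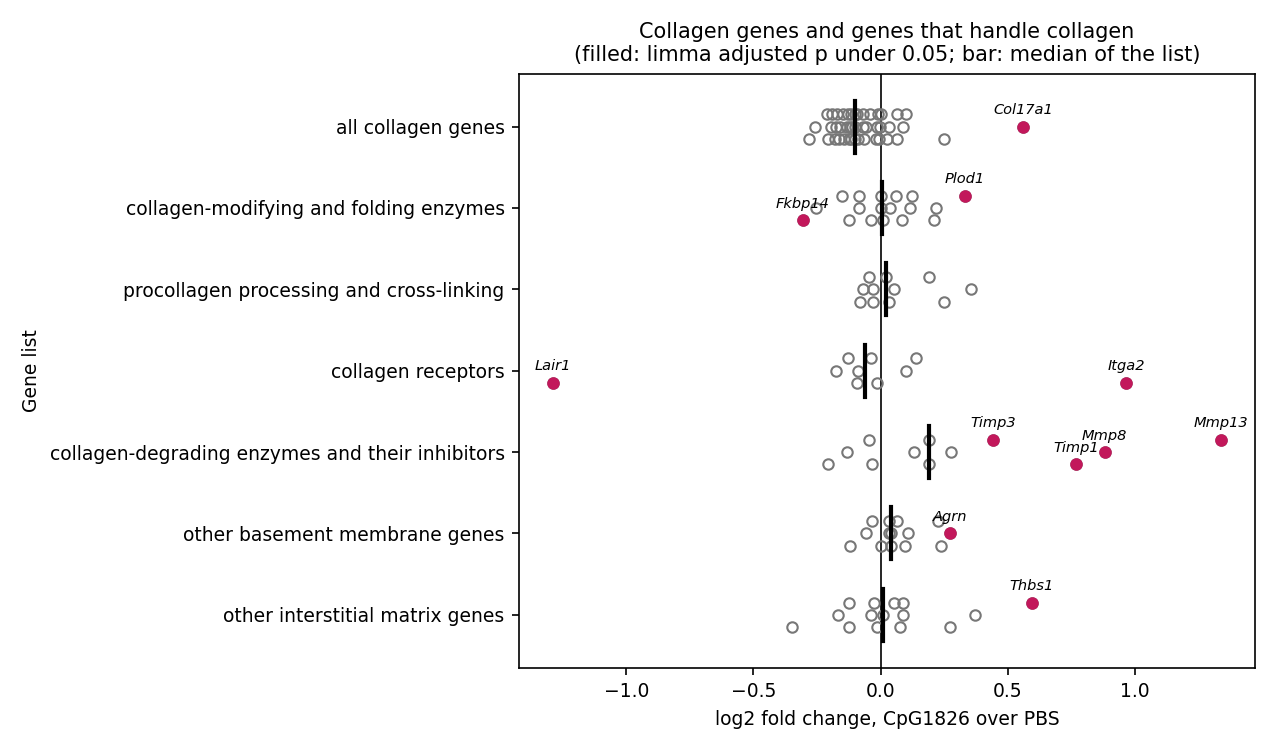
Log2 fold change of CpG1826 over PBS tumors for all collagen genes and for the genes of 6 lists around collagen (1 point per gene, n = 5 tumors per group). Filled points had a limma adjusted p under 0.05, and vertical bars mark list medians. The collagens lie between -0.28 and 0.56, while receptors and degrading enzymes reach from -1.29 (Lair1) to 1.34 (Mmp13).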

How the data were processed

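The authors deposited 1 table of log2 normalized signals for 35512 probes on 10 arrays. Base 2 was inferred from the range of the values (2.03 to 14.70). Per the labels' protocols RNA was labelled with an Affymetrix whole-transcript kit. R 2.7.1 and limma are listed, without what each did, by the submitters' processing notes. The sources used here do not give the method of background correction, summarization or normalization. A normalization between arrays removes changes common to most genes, and summarization can compress changes of dim probes. Gene names came from the platform's annotation (21789 probes with 1 symbol, 1621 with several, 12102 with none). The entrez numbers of 21698 matched RefSeq (GRCm38.p6), with 0 symbols changed.

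The test was that of limma 3.58.1 (lmFit, then eBayes; R 4.3.3; two-sided, Benjamini-Hochberg over 19938 genes, threshold 0.05), and the fit was tested on simulated data. No correction or filter was applied to the values. Correlations used 100000 permutations (two-sided), adjusted over 4 pairs. The collagen genes, the classes and the lists were chosen with earlier results of these data known. The alternatives were 2 further normalizations, 2 filters on low values, another prior, weights for arrays, all probes of a gene averaged, marker means as covariates, each mouse left out and, added after seeing the data, the lower quartile of each array as a covariate. The main fit was also read at an adjusted p under 0.1, and with type IV chains alone or Col7a1 and Col17a1 added as the basement membrane class. Values in every tumor are given for 16 preset collagens, those that passed and the extremes of each class, and of each other list up to 4 called genes with the largest change, or with none called the 2 brightest, are named. Further list genes named as examples were picked with their values known. The labels give each array its own mouse number, and the spread between mice is the error measured. Some list genes were not analysed here, among them Col21a1, Fkbp10, Adamts2, Loxl2, Gp6, Fbn1, Dsg1a, Dsc1 and Cfd.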

Additional observations from a re-analysis of the deposited data

Results flagged for a closer look

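In 88 sets (44 collagens in 2 groups of 5 tumors), the gap between an extreme tumor and its nearest neighbour was compared with the range of the set by Dixon's ratio. It passed the critical value of 0.71 in 4 sets, and chance flags about 1 in 20 groups. In the PBS group, mouse 661 stood high for Col5a1 (9.97, next 9.68) and Col5a3 (9.54, next 9.20). Mouse 592 stood low for Col4a3 (5.94, next 6.21) in the PBS group, the tumor with the lowest mean of the dimmer collagens. In the CpG1826 group, mouse 50 stood low for Col8a1 (8.39, next 8.71).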

How the results depend on the processing

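Each result was recomputed under up to 20 other fits, 10 of which left out 1 mouse. Collagen calls of the main fit were also counted at an adjusted p under 0.1. Those of the basement membrane class were also counted with changed members. In the 10 fits without 1 mouse, 1 collagen rose and 0 fell each time, 0 in the fibrillar and basement membrane classes. The collagens called lower numbered 1 after a further quantile normalization (Col5a1, fibrillar) and 1 with the keratinocyte covariate (Col4a5, basement membrane, at -1.25, limma adjusted p = 0.0493). The collagens called higher, all of the other class, numbered 0 with the keratinocyte covariate, where Col17a1 was at -0.38. They numbered 0 when genes under the median gene value were dropped, because Col17a1 was then not among the 27 collagens tested. At an adjusted p under 0.1 the collagen counts did not change. With Col7a1 and Col17a1 added to the basement membrane class, 1 of its genes rose, and with the type IV chains alone 0 passed.

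The median log2 fold changes with the keratinocyte covariate were -0.55 over all collagens, -0.24 for basement membrane, -0.66 for other and -0.16 for fibrillar collagens, where Col1a1 (0.23) and Col1a2 (0.79) were positive without passing; the cause was not tested. Without 1 mouse these medians ranged from -0.14 to -0.05 over all collagens, from -0.18 to -0.07 for fibrillar, from -0.10 to -0.02 for basement membrane and from -0.16 to -0.05 for other collagens. Of the 80 pathway genes, 8 rose and 2 fell, with ranges of 5 to 8 and 1 to 3 without 1 mouse. With the keratinocyte covariate the counts were 0 and 0, and 0.752% of all genes passed. The log2 fold changes were then 1.66 for Mmp13, 1.27 for Itga2, -1.32 for Lair1, 0.23 for Agrn and -0.30 for Fkbp14. All values with this covariate are extrapolations, because the marker ranges of the groups do not overlap. Of the markers called without that covariate, those that changed sign with it were Csf1r (0.23), Epcam (-0.33) and, themselves part of the covariate, Krt5 (-0.40), Krt14 (-0.33), Lgals7 (-0.60), Dsg3 (-0.24) and Sbsn (-0.31). Over all genes, 440 were lower after the further quantile normalization against 220. The sign changed for 10 of 44 collagens, Col17a1 among them, with the keratinocyte covariate and for up to 5, all uncalled, without 1 mouse. No paired analysis was possible because the groups share no replicate number. No background measure was used, so low signals carry no statement on presence.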
